A study of Danio rerio with 68 samples.

Results

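The genes described here are the zebrafish vitellogenins vtg1, vtg2, vtg3, vtg4, vtg5, vtg6 and vtg7 and the estrogen receptor gene esr1, as expressed in males. They were chosen by name: each is a row of the gene count table whose symbol is on this list, and all 8 were found among 32677 genes. Expression was measured by RNA-seq in liver, brain and skin of male zebrafish that had lived in tanks with or without rotenone, an inhibitor of mitochondrial complex I. Rotenone was given in the tank water at 3.75 nM, and per the labels' treatment protocol the tanks of the controls received DMSO, although the treatment label of each control reads "none". The rotenone fish were 36 months old, 6 of them with liver libraries after 8 weeks of exposure and 4 after 3 weeks. Controls of 36 months gave 3 livers at 8 weeks and 2 at 3 weeks, and controls of 12 months gave 3 livers at 8 weeks and 2 at 3 weeks. Brain and skin each had, in the same order of groups, 6, 5, 4, 3, 3 and 3 libraries. No group of 12-month-old fish received rotenone, and the 36- and 12-month-old fish are different animals. The labels do not say how many tanks were used, so p-values within a tissue, and those of correlations, measure the spread between fish. Tests between tissues took tissues of the same fish as separate libraries, so their p-values measure the spread between libraries, except where the fish is named as a block.

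Vitellogenins are large lipid-carrying phosphoproteins, the precursors of egg yolk. In egg-laying vertebrates the liver makes them in females: estradiol from the ovary enters the hepatocyte, binds the nuclear receptor Esr1, and the receptor switches on the vitellogenin genes and its own gene, after which the protein travels in the blood to the growing oocyte. Males carry the same genes, normally with little transcription, and vitellogenin in male fish is widely used as a sign of exposure to estrogens. The copies fall into a group of closely related forms (vtg1, vtg4, vtg5, vtg6 and vtg7) and a more distant form (vtg2). vtg3 is a short form that lacks the phosvitin domain.

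The count table gives the members as ENSDARG00000092233 (vtg1), ENSDARG00000055809 (vtg2), ENSDARG00000016448 (vtg3), ENSDARG00000078429 (vtg4), ENSDARG00000092126 (vtg5), ENSDARG00000016825 (vtg6), ENSDARG00000092419 (vtg7) and ENSDARG00000004111 (esr1). In RefSeq's annotation of the GRCz12tu assembly, used here for gene order only, vtg4, vtg6, vtg7 and vtg2 follow each other, with vtg8 next to vtg2. vtg5 lies between LOC141380276 and si:rp71-23d18.4. vtg3 lies elsewhere, between ifi30b and adgrl4, esr1 lies between myct1a and armt1, and vtg1 was not matched. How reads that fit several of the near-identical copies were counted, and whether counting used strand, is not given in the sources used here. The split of counts among vtg1, vtg4, vtg5, vtg6 and vtg7 is therefore uncertain.

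The libraries held 28.7 to 47.3 M counted reads in liver, 24.1 to 54.9 M in brain and 24.3 to 34.4 M in skin. The tissue labels matched their marker genes: 22 hepatocyte markers took 9.72% to 27.7% of counts in liver, at most 0.429% in brain and at most 2.01% in skin. The 19 ovary and oocyte markers took between 2.1e-05% and 0.000223% of counts in the livers. Of these, 3 were at 0 in all 20 livers, among them zp2 and figla, while bmp15 had reads in every liver, at 0.0232 to 0.398 CPM. The liver of replicate 3 of the 36-month controls at 8 weeks stood apart, with the lowest hepatocyte share (9.72%) and the highest share of 14 intestine markers (1.73%, against at most 0.418% in the other livers). Calls of the members within liver that rest on it are given with and without it. The differences between tissues, and some calls of other genes, are given only with it.

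In male liver, vitellogenin transcripts were present in every library, and vtg5 made up most of them. Counts of the 7 vitellogenins summed to 297 to 68272 reads per liver, or 9.74 to 2319 CPM (counts scaled to a common library total), between 0.00097% and 0.232% of a library. On the length-corrected RPKM scale the level of vtg5 had a median of 10.7 and ranged between 1.97 and 470.0 over the 20 livers. Among all genes of a liver ordered by RPKM, vtg5 stood between place 190 and place 11373. The closely related forms sat far below: in RPKM, vtg4 was 2.17% to 6.44% of vtg5, vtg6 2.34% to 5.29%, vtg1 1.77% to 5.62% and vtg7 0.791% to 3.56%. vtg2, the more distant form, ranged between 0% and 121% of vtg5, with a median of 0.458%. vtg5 was the highest vitellogenin in 19 of 20 livers, and vtg2 was the highest in the other. esr1 had a median level of 1.40 RPKM in liver, below vtg5 in 20 of 20 livers.

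**Figure D1:**
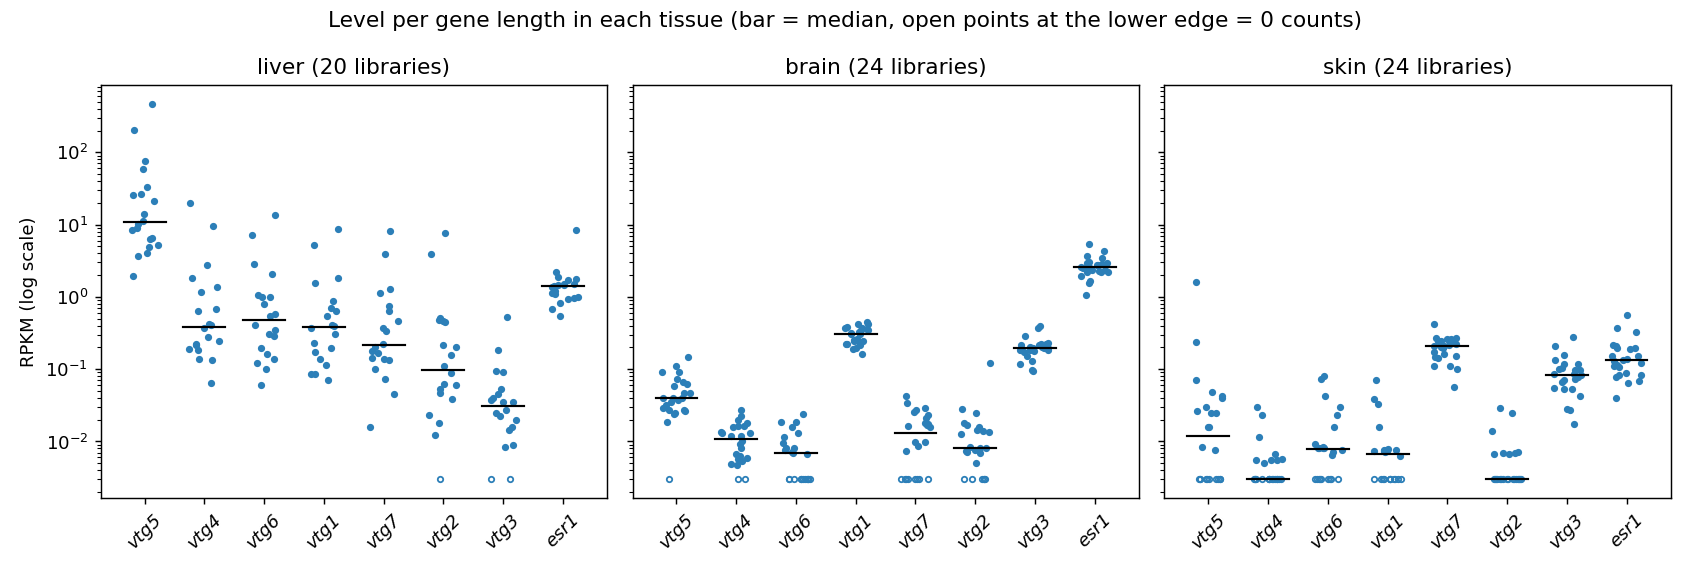
Level of each gene per length (RPKM, log scale) in every library, for 20 livers, 24 brains and 24 skins; each point is a library, bars are medians and open points at the lower edge are libraries with 0 counts. In liver vtg5 has a median of 10.7 RPKM, in brain vtg1 and vtg3 are the vitellogenins seen in every library, and in skin vtg7 and vtg3 are.

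After 8 weeks of rotenone, 5 of the 8 genes were lower in the livers of 36-month-old males than in controls of that age: vtg1, vtg4, vtg5, vtg6 and vtg7. Fitted log2 fold changes of these 5 lay between -5.37 and -4.51, while esr1, vtg2 and vtg3 did not pass the test (edgeR's quasi-likelihood F test with Benjamini-Hochberg adjustment over all genes, threshold 0.05). Of all 20190 genes tested in liver, 5.19% were called lower and 7.36% in either direction, and the median gene had a log2 fold change of -0.03. The difference in the vitellogenins rests on high values in 2 of the 3 controls. The 5 are closely related forms that moved together over the 20 livers (r with vtg5 between 0.978 and 0.991), and their counts may share reads. Their calls, here and below, are therefore not 5 independent results to set against the share of all genes.

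vtg5, the main transcript, had 28.7, 22.6, 16.3, 21.3, 27.6 and 45.2 CPM in the 6 rotenone livers, against 894, 2062 and 8.65 CPM in the 3 control livers. The rotenone livers lay close together, whereas 2 controls lay far above them and the control of replicate 3 lay below all 6, so the groups overlapped. The mean was 26.9 ± 9.99 CPM with rotenone and 988 ± 1030 CPM in controls (SD, n = 6 and 3), a log2 fold change of -5.15 ± 0.99 (SE, edgeR adjusted p = 0.0077). Without control replicate 3 it was -5.75 (edgeR adjusted p = 0.00076), and with each of the 9 libraries left out in turn it lay between -5.75 and -4.07.

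vtg4, a neighbour of vtg6 in the annotation, had 1.31, 1.72, 1.12, 0.816, 2.48 and 1.37 CPM in rotenone livers, against 59.0, 122.6 and 0.393 CPM in controls. The same pair of controls was high and the third was below every rotenone liver. The log2 fold change was -5.37 ± 0.99 (SE, edgeR adjusted p = 0.0062).

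vtg6 had 1.53, 0.531, 0.450, 0.866, 0.704 and 1.82 CPM with rotenone, against 31.7, 60.2 and 0.262 CPM in controls. Its log2 fold change was -4.89 ± 1.0 (SE, edgeR adjusted p = 0.00999). vtg1, also one of the closely related forms, had 1.69, 0.641, 0.394, 0.396, 0.783 and 1.40 CPM, against 24.4, 39.6 and 0.328 CPM. Again replicate 3 of the controls was the lowest of the 9 livers, and the fold change was -4.51 ± 0.95 (log2, SE, edgeR adjusted p = 0.0111). vtg7, of the same group of forms, had 0.563, 0.575, 0.309, 0.421, 0.939 and 0.755 CPM in rotenone livers, against 16.7, 34.4 and 0.0656 CPM in controls. Its fold change was -4.83 ± 0.99 (log2, SE, edgeR adjusted p = 0.0101), with the same order of controls.

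All 5 calls held with any of the 9 livers left out. With only these 2 groups in the fit, vtg4 and vtg5 still passed, at adjusted p = 0.0391 and 0.0435, and vtg1, vtg6 and vtg7 missed the threshold at 0.0553, 0.0523 and 0.0511. With the replicate number as a block none of the 5 passed, vtg5 standing at an edgeR adjusted p of 0.15. The share of all genes called in either of these fits is not given. In these bulk samples, fewer hepatocytes in a piece of tissue and less RNA per hepatocyte cannot be told apart. The 22 hepatocyte markers took 21.6% to 27.7% of counts in the 6 rotenone livers, and 23.0%, 21.6% and 9.72% in the controls in the order of their replicates; 1 of the 22 was called higher and none lower. Of 13 intestine markers tested, 7 were called lower with rotenone, as were 2 of 13 skin markers, and both lists were highest in control replicate 3, without which the 5 vitellogenin calls remained, where 4.71% of all genes were called. Exocrine pancreas markers reached 7.29% of counts in rotenone replicate 6, with none of 17 called.

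**Figure D2:**
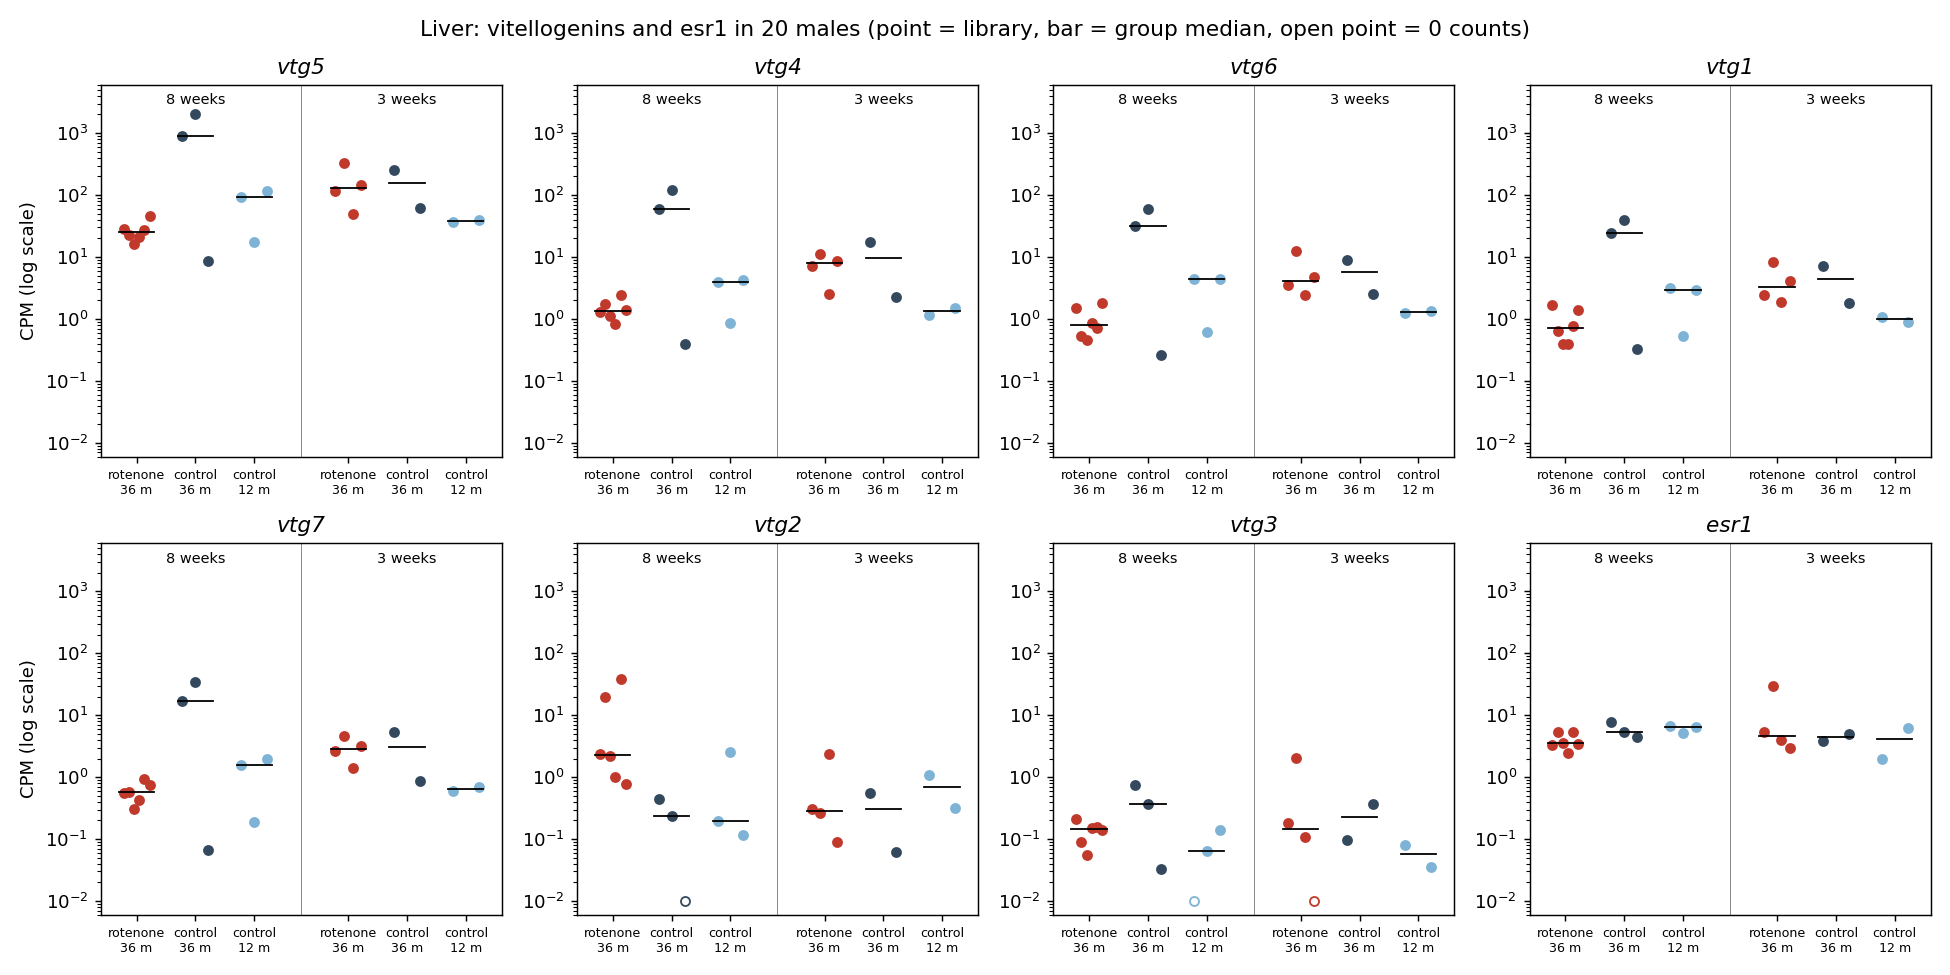
CPM (log scale) of the 8 genes in each of the 20 livers, by treatment, age and time in the tank; points are libraries, bars are group medians and open points mark 0 counts. At 8 weeks 2 of the 3 control livers of 36 months stand above all 6 rotenone livers for vtg5, vtg4, vtg6, vtg1 and vtg7, and the third stands below them.

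vtg2, the more distant form, did not follow the others. It had 2.35, 19.6, 2.22, 1.01, 38.1 and 0.783 CPM in rotenone livers, against 0.437, 0.238 and 0 CPM in controls. All 6 rotenone livers were above all 3 controls, which was the case for 2.59% of all genes tested, but rotenone livers differed among themselves by more than an order of magnitude. The log2 fold change of 5.43 ± 1.73 did not pass the test (SE, edgeR adjusted p = 0.065), while DESeq2 gave an adjusted p of 0.00056 for it. Between replicates 2 and 5 and the other rotenone livers lay a gap from 2.35 to 19.6 CPM, and vtg5 in those 2 livers, at 22.6 and 27.6 CPM, was within the range of the rest.

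vtg3, the phosvitin-free form, was near the detection limit in liver, with 2 to 9 reads per rotenone liver and 32, 11 and 1 reads in controls. In CPM these were 0.0563 to 0.211 with rotenone, against 0.736, 0.374 and 0.0328 in controls, and the groups overlapped. The log2 fold change of -1.47 ± 1.14 did not pass (SE, edgeR adjusted p = 0.47).

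esr1, which encodes the receptor through which estradiol drives vitellogenin transcription, had 3.33, 5.33, 3.60, 2.45, 5.43 and 3.47 CPM in rotenone livers, against 7.91, 5.30 and 4.39 CPM in controls. The groups overlapped, and the means were 3.93 ± 1.19 CPM with rotenone and 5.87 ± 1.83 CPM in controls (SD, n = 6 and 3). The log2 fold change was -0.46 ± 0.61 (SE, edgeR adjusted p = 0.70), so a change in the receptor transcript was not detected. Whether the receptor acted on the vitellogenin genes in these males was not tested.

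**Figure D3:**
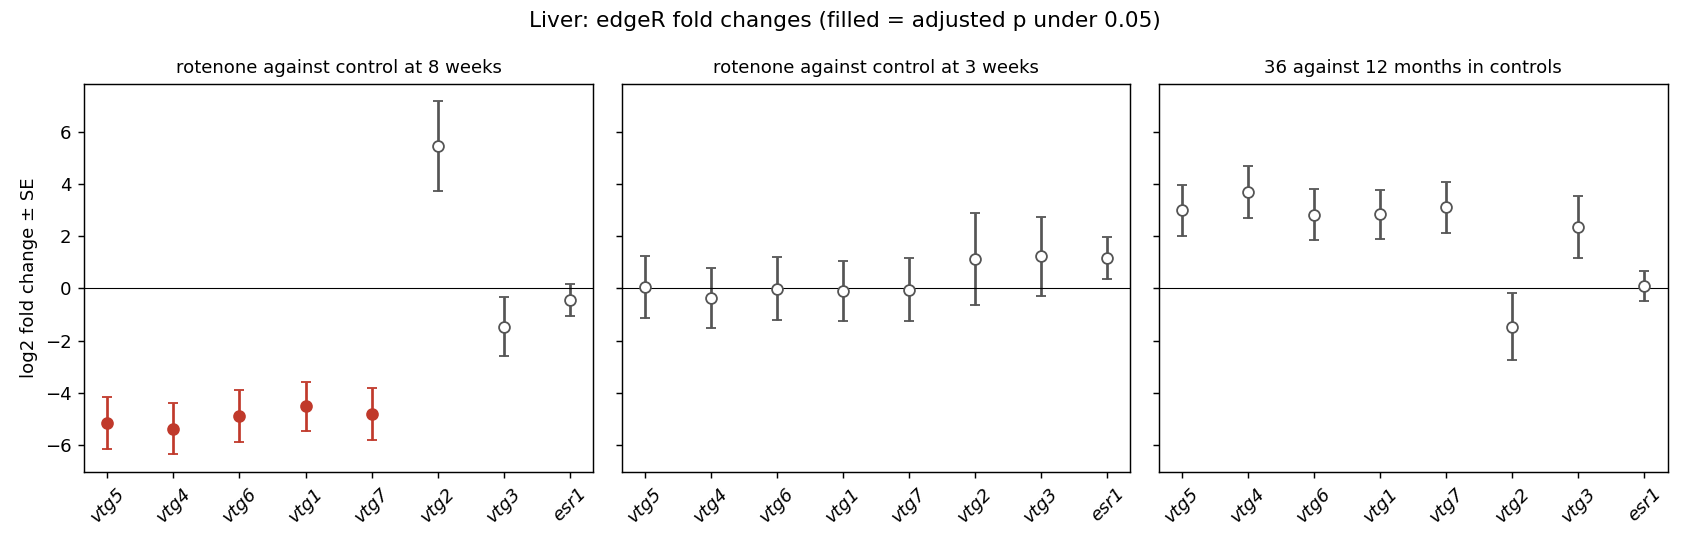
Log2 fold changes in liver with their standard errors (edgeR) for rotenone against control at 8 weeks, rotenone against control at 3 weeks, and 36 against 12 months in controls; filled points have an adjusted p under 0.05. The 5 filled points, between -5.37 and -4.51, are all in the 8-week comparison.

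At 3 weeks none of the 8 genes passed the test between rotenone and control livers, in a comparison in which 0% of all genes passed. None of the 8 reached an unadjusted p under 0.05, where 4.8% of all genes did. vtg5 had 118, 332.5, 49.1 and 146 CPM in rotenone livers, against 254.5 and 61.6 CPM in controls, and the groups overlapped. Its log2 fold change was 0.04 ± 1.18 (SE, edgeR adjusted p = 1). Over the 8 genes the fold changes lay between -0.36 and 1.22 on the log2 scale.

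Replicate 2 of the rotenone livers at 3 weeks was set apart from its group for esr1 and vtg3. Its esr1 level was 29.9 CPM, against 5.30, 4.02 and 2.95 CPM in the other rotenone livers and 3.90 and 4.93 CPM in controls. Its vtg3 level was 2.07 CPM, against at most 0.181 CPM in the other rotenone livers and 0.0967 and 0.365 CPM in controls. The log2 fold change of esr1 was 1.17 ± 0.80 with this liver and -0.21 ± 0.51 without it, and that of vtg3 was 1.22 ± 1.5 with it and -1.39 ± 1.27 without it (SE, edgeR adjusted p between 0.91 and 1).

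Whether the rotenone difference itself changed between the times was tested as an interaction. None of the 8 genes passed in liver, where 0.0693% of all genes did; 5 of the 8 had an unadjusted p under 0.05, as did 11.9% of all genes. The difference at 8 weeks minus that at 3 weeks was -5.19 ± 1.73 for vtg5 (log2, SE, edgeR adjusted p = 0.25), 4.30 ± 2.26 for vtg2 (adjusted p = 0.47) and -1.63 ± 1.0 for esr1 (adjusted p = 0.54). For vtg5 DESeq2 gave an adjusted p of 0.0195, while the edgeR adjusted p was at least 0.0508 with each of 15 libraries left out in turn. Without control replicate 3 of 8 weeks edgeR called 1 member other than vtg5, where 0.347% of all genes were called.

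Among rotenone fish, livers of 8 weeks were set against livers of 3 weeks, which use the same rotenone livers as the comparisons with controls. Levels of vtg1, vtg4, vtg5, vtg6 and vtg7 in the 6 livers of 8 weeks were all below those in the 4 livers of 3 weeks, as was the case for 12% of all genes tested. For vtg5 the highest liver of 8 weeks had 45.2 CPM and the lowest of 3 weeks 49.1 CPM. None of the 8 genes passed the test, where 9.25% of all genes did, while 7 of the 8 and 23.9% of all genes had an unadjusted p under 0.05. The log2 fold change was -2.34 ± 0.88 for vtg5 (SE, edgeR adjusted p = 0.11), 4.09 ± 1.38 for vtg2 (adjusted p = 0.075) and -1.21 ± 0.56 for esr1 (adjusted p = 0.19). Without the control liver that stands apart, 5 members were called, where 13.2% of all genes were, vtg5 at an edgeR adjusted p of 0.0163. That liver is in neither group and enters this comparison through the shared filter, scaling and estimate of spread. Without rotenone replicate 3 of 3 weeks, vtg2 was called at an edgeR adjusted p of 0.0383, in a fit whose share of all genes called is not given.

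In controls of both ages, 8 against 3 weeks, none of the 8 genes passed the test, in a comparison in which 7.35% of all genes did, while 5 of the 8 and 23.8% of all genes had an unadjusted p under 0.05. vtg5 averaged 532 ± 822 CPM at 8 weeks and 98.1 ± 105 CPM at 3 weeks (SD, n = 6 and 4), with a log2 fold change of 2.18 ± 0.96 (SE, edgeR adjusted p = 0.18). vtg4 had 2.28 ± 0.96 (adjusted p = 0.16) and esr1 0.72 ± 0.58 (adjusted p = 0.49). Without control replicate 3 of 36 months and 8 weeks, 5 members were called, where 11.8% of all genes were, vtg4 at an adjusted p of 0.0151 and vtg5 at 0.0232.

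Age was compared in controls only, as the mean over both times. At 8 weeks vtg5 had 894, 2062 and 8.65 CPM in the livers of 36 months, against 93.3, 17.5 and 114 CPM in those of 12 months. At 3 weeks it had 254.5 and 61.6 CPM at 36 months, against 36.5 and 39.7 CPM at 12 months. The livers of 36 months were above those of 12 months at each time with the exception of replicate 3 of 8 weeks, which was the lowest of all 20 livers. The means were 656 ± 861 CPM at 36 months and 60.3 ± 41.3 CPM at 12 months (SD, n = 5 each).

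None of the 8 genes passed the test of age in liver, where 0.926% of all genes did and the median gene had a log2 fold change of 0.12. At an unadjusted p under 0.05 stood 5 of the 8, and 18.1% of all genes. The log2 fold changes of the closely related forms were 3.69 ± 0.99 for vtg4 (SE, edgeR adjusted p = 0.077), 3.11 ± 0.98 for vtg7 (adjusted p = 0.12), 2.98 ± 0.96 for vtg5 (adjusted p = 0.13), 2.84 ± 0.93 for vtg1 (adjusted p = 0.13) and 2.82 ± 0.97 for vtg6 (adjusted p = 0.15). Without the control liver that stands apart all 5 were called, where 1.58% of all genes were, with log2 fold changes between 3.08 and 3.96 and edgeR adjusted p between 0.0072 and 0.0350. vtg3 had 2.34 ± 1.18 (adjusted p = 0.30) and vtg2 -1.47 ± 1.27 (adjusted p = 0.56). esr1 averaged 5.29 ± 1.56 CPM at 36 months and 5.27 ± 1.95 CPM at 12 months, a log2 fold change of 0.08 ± 0.57 (SE, edgeR adjusted p = 0.95). The comparisons of age and of rotenone share the 36-month controls, so the high values of 2 of those livers enter both.

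Across the 20 livers the 5 closely related forms varied together over more than 2 orders of magnitude. On log2 CPM, Pearson's r with vtg5 was 0.991 for vtg6, 0.985 for vtg7, 0.985 for vtg1 and 0.978 for vtg4, and Spearman's rho lay between 0.947 and 0.984 (permutation tests, adjusted p = 4.5e-05 over 18 relations, the smallest that 100000 permutations could give here). After group means were taken out, r lay between 0.975 and 0.988, and without the 2 livers farthest from the median vtg5 it lay between 0.953 and 0.983. The values share a library, and reads of near-identical copies may have been counted for each other. For vtg2 the relation with vtg5 was r = -0.31 and rho = -0.43 (permutation test, adjusted p = 0.28 and 0.086). For vtg3 it was r = 0.55 and rho = 0.53 (permutation test, adjusted p = 0.036 and 0.046), and r was 0.39 without the 2 farthest livers, at a permutation p of 0.11. After group means were taken out the relation of vtg3 did not pass, at r = 0.53 and rho = 0.46 (permutation test, adjusted p = 0.062 and 0.071).

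**Figure D4:**
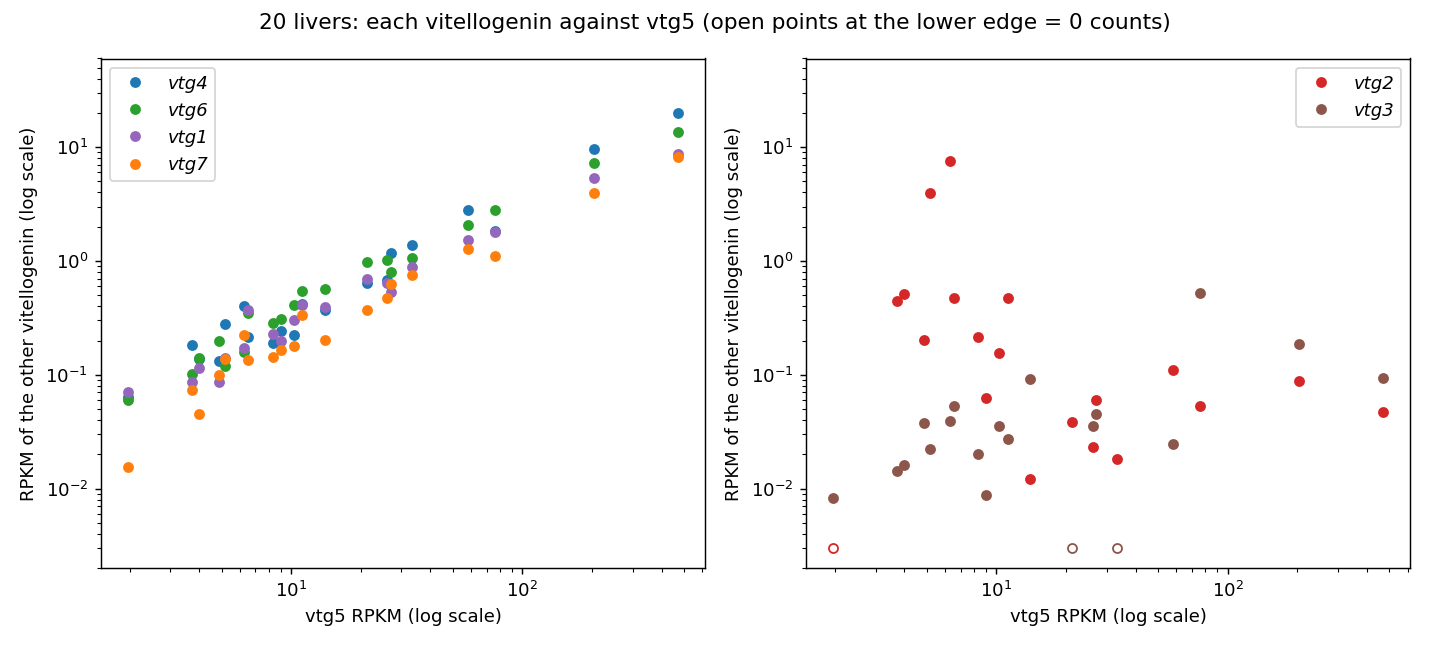
RPKM of each other vitellogenin against RPKM of vtg5 in the 20 livers (log scales; each point is a library, open points at the lower edge are 0 counts). vtg4, vtg6, vtg1 and vtg7 rise along with vtg5 at 0.791% to 6.44% of its level, while the 2 highest values of vtg2 occur in livers with low vtg5.

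Over the livers esr1 correlated positively with each vitellogenin other than vtg2, but most of these relations did not pass after adjustment. esr1 and vtg5 had r = 0.49 and rho = 0.49 (permutation test, adjusted p = 0.061 and 0.053, n = 20 livers), and r was 0.48 without the 2 farthest livers. With vtg1, vtg4, vtg6 and vtg7 r lay between 0.45 and 0.50, with adjusted p between 0.061 and 0.080, and with vtg2 it was -0.08 (permutation test, adjusted p = 0.77). For vtg1 and vtg4 the rank correlation passed at rho = 0.53 and 0.55 (permutation test, adjusted p = 0.046 for both). After group means were taken out it did not, at rho = 0.46 and 0.52 (permutation test, adjusted p = 0.071 and 0.060). esr1 and vtg3 had r = 0.65 and rho = 0.49 (permutation test, adjusted p = 0.0092 and 0.053), and without the 2 farthest livers, one of which was the rotenone liver with 29.9 CPM of esr1, r was 0.40 at a permutation p of 0.097. After group means were taken out, r was 0.74 and rho 0.585 (permutation test, adjusted p = 0.0014 and 0.030), and r was 0.64 without the 2 farthest livers. vtg3 had few reads in most livers.

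Among genes other than the members whose symbol is not a clone or accession name, those with log2 CPM over the 20 livers most like that of vtg5 were rabgef1 (r = 0.83), ndufb6 (0.83), slc11a2 (0.83), slc25a11 (0.82) and smap1 (0.81), at ranks 6 to 10 of 20189 genes. The row si:rp71-23d18.2, named here after its values were seen, was at rank 2 with r = 0.99, and had a log2 fold change of -4.96 ± 0.97 with 8 weeks of rotenone (SE, edgeR adjusted p = 0.0079). The row si:dkey-4c23.3, which the name table gives as vtg8, had 0.0696 to 1.60 CPM in liver, r = -0.56 with vtg5, and no call in any liver comparison (edgeR adjusted p at least 0.63). By the same rule the genes most like esr1, at ranks 2 to 6, were myh14 (r = 0.73), C14H4orf29 (0.73), DYNC1H1 (0.73), gstt1b (0.72) and C11H1orf116 (2 of 2) (0.72); rank 1 was the row ENSDARG00000096575, which has no symbol in the count table (r = 0.74). These likenesses are descriptions over 20 livers.

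Among the other receptors of sex steroids, 3 had a higher mean level per length in liver than esr1 and 2 a lower one. esr2b, a second estrogen receptor gene, had 39.3 ± 19.0 RPKM, esr2a 5.29 ± 2.32 RPKM and the androgen receptor gene ar 14.3 ± 6.63 RPKM, whereas esr1 had 1.65 ± 1.63 RPKM (SD, n = 20 livers). esr2b was above esr1 in 20 of 20 livers. The membrane estrogen receptor gene gper had 0.0973 RPKM and the progestin receptor gene pgr 0.0449 RPKM. None of the 4 receptor genes tested was called in any of the 6 liver comparisons, in which between 0% and 9.25% of all genes were called. With 8 weeks of rotenone the log2 fold change was 0.31 ± 0.32 for esr2b (SE, edgeR adjusted p = 0.60), 0.40 ± 0.32 for esr2a (adjusted p = 0.48), 0.02 ± 0.41 for ar (adjusted p = 0.99) and 0.53 ± 0.97 for gper (adjusted p = 0.79). For age, esr2b had the smallest adjusted p, at -1.13 ± 0.29 (log2, SE, edgeR adjusted p = 0.069).

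Of 13 sex steroid synthesis genes tested in liver, 1 was called with 8 weeks of rotenone, where 7.36% of all genes were: srd5a1, a steroid reductase gene, at 0.377 ± 0.0977 CPM with rotenone and 1.72 ± 0.507 CPM in controls (log2 fold change -2.04 ± 0.50, SE, edgeR adjusted p = 0.022). The list's median log2 fold change was -0.07, against -0.03 over all genes. srd5a1 was also lower at 8 than at 3 weeks of rotenone (-2.50 ± 0.47, edgeR adjusted p = 0.0047), again as the list's single call, where 9.25% of all genes were called.

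Of 22 genes for cofactors and chaperones of nuclear receptors, 4 were called higher and 2 lower with 8 weeks of rotenone, where 7.36% of all genes were called, with a median log2 fold change of 0.26, against -0.03 over all genes. The lower ones were ptges3b, a gene for an Hsp90 co-chaperone, at 4.99 ± 1.74 CPM with rotenone and 30.8 ± 11.1 CPM in controls (-2.39 ± 0.32, edgeR adjusted p = 0.0015), and nr0b2a, a corepressor gene, at 5.29 ± 1.88 CPM and 247 ± 422 CPM (-4.88 ± 1.05, edgeR adjusted p = 0.012). Among the higher ones were crebbpa, a coactivator gene (0.80 ± 0.17, edgeR adjusted p = 0.012), and foxa3, a pioneer factor gene (1.45 ± 0.35, edgeR adjusted p = 0.021). Without the control liver that stands apart, 1 was called higher and 1 lower in this list, where 4.71% of all genes were called: nr0b2a then had an adjusted p of 0.53 and foxa3 0.077, while ptges3b had 0.0019 and crebbpa 0.014.

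At 8 against 3 weeks of rotenone 3 of these 22 were called higher and 3 lower, where 9.25% of all genes were called, with a median of 0.37, among them ptges3b (-3.29 ± 0.31, edgeR adjusted p = 4.9e-05), fkbp4 (-1.54 ± 0.29, adjusted p = 0.0047) and ptges3a (-1.54 ± 0.29, adjusted p = 0.0048), all genes for Hsp90 partners, and the coactivator gene ncoa1 (0.97 ± 0.21, adjusted p = 0.0090). At 8 against 3 weeks in controls 4 were called lower and none higher, where 7.35% of all genes were called, with a median of 0.22: nr0b2b (-5.10 ± 0.88, edgeR adjusted p = 0.0082), ptges3b (-1.29 ± 0.30, adjusted p = 0.018), foxa3 (-1.21 ± 0.30, adjusted p = 0.023) and ptges3a (-1.03 ± 0.29, adjusted p = 0.044).

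Of 11 genes tested for the loading, uptake and cleavage of vitellogenin and for egg coats, 1 was called with 8 weeks of rotenone, where 7.36% of all genes were, the cathepsin gene ctsbb, at 0.215 ± 0.149 CPM with rotenone and 3.63 ± 5.41 CPM in controls (-3.52 ± 0.95, edgeR adjusted p = 0.032). It had an adjusted p of 0.46 without the control liver that stands apart. At 8 against 3 weeks of rotenone 1 of the 11 was called, where 9.25% of all genes were, mtp, whose product loads lipid onto lipoproteins (-0.9998 ± 0.28, edgeR adjusted p = 0.034). In none of the 4 lists was a gene called at 3 weeks of rotenone, for age, or for the change of the rotenone difference with time. Few or no genes of any kind were called in these comparisons, at 0%, 0.926% and 0.0693% of all genes.

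Set against brain, liver held more of 3 of the 4 genes that passed the filter on low counts in both tissues, vtg1, vtg5 and esr1, in a comparison in which 39% of all genes were called higher. vtg5 averaged 220 ± 478 CPM in liver and 0.219 ± 0.146 CPM in brain (SD, n = 20 and 24), a log2 difference of 10.67 ± 0.55 (SE, edgeR adjusted p = 6.4e-25), and its ranges did not overlap. The log2 difference was 2.76 for vtg1, whose ranges overlapped, at 0.328 to 39.6 CPM in liver and 0.741 to 2.06 CPM in brain. Over 5 alternatives, all past the threshold, it lay between 1.14 and 2.68. Fitted log2 differences of 8.68 for vtg6, 7.87 for vtg4, 6.97 for vtg7 and 5.43 for vtg2 are descriptions, since these genes passed the filter in liver but not in brain and so had to differ. vtg3 averaged 0.254 ± 0.459 CPM in liver and 0.796 ± 0.277 CPM in brain (SD) and was not called (-0.49 ± 0.35, SE, edgeR adjusted p = 0.19); it was called lower with the fish as a block, at -0.81 and an adjusted p of 0.034, and with library totals alone, at -2.08 and an adjusted p of 3.6e-07.

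For esr1 the direction between liver and brain depended on how libraries were scaled. It averaged 5.93 ± 5.83 CPM in liver and 9.64 ± 3.19 CPM in brain (SD, n = 20 and 24). With TMM scaling, which allows for the few very abundant genes that take a large part of a liver library, the log2 difference was 0.83 ± 0.22 (SE, edgeR adjusted p = 0.00057). With library totals alone it was -0.77 ± 0.22 (SE, edgeR adjusted p = 0.0014), and the median of all genes was then -1.61, against -0.10 with TMM.

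Set against skin, 2 of the 3 genes that passed the filter in both tissues were called higher in liver, where 31.6% of all genes were, with log2 differences of 4.46 for esr1 and 2.47 for vtg7. Fitted log2 differences of 10.90 for vtg5, 9.07 for vtg4, 7.86 for vtg6, 7.64 for vtg1 and 6.57 for vtg2 are descriptions, since these genes did not pass the filter in skin. vtg3 was not called (0.25 ± 0.37, SE, edgeR adjusted p = 0.55), and with library totals alone it was called lower, at -0.95 and an adjusted p of 0.0103, with a median of all genes of -1.36, against -0.25 with TMM. For the other 7 genes the direction was the same under both scalings.

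In brain, vtg1 and vtg3 were the vitellogenins seen in every library. vtg1 had 0.741 to 2.06 CPM and vtg3 0.370 to 1.55 CPM over 24 brains, while vtg5 had 0 to 0.650 CPM. By RPKM vtg1 was above vtg5 in 24 of 24 brains, and it was the highest vitellogenin in 22, vtg3 in the other 2. vtg2, vtg4, vtg6 and vtg7 did not pass the filter on low counts, with medians between 0.0303 and 0.0669 CPM.

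Brain esr1 ranged between 3.81 and 19.1 CPM, with a median of 9.17 CPM. With 8 weeks of rotenone the lowest, median and highest of the 6 brains were 6.02, 10.99 and 19.1 CPM, against 10.5, 10.1, 10.04 and 10.7 CPM in the 4 controls. The controls lay inside the range of the rotenone brains. The means were 11.8 ± 4.90 CPM with rotenone and 10.3 ± 0.297 CPM in controls (SD, n = 6 and 4), a log2 fold change of 0.13 ± 0.28 (SE, edgeR adjusted p = 1). vtg1 averaged 1.35 ± 0.511 CPM with rotenone and 1.37 ± 0.435 CPM in controls (-0.07 ± 0.28), and vtg3 1.05 ± 0.406 CPM and 0.775 ± 0.0998 CPM (0.38 ± 0.31), both overlapping.

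None of the 4 members tested in brain (vtg1, vtg3, vtg5 and esr1) was called in any of the 6 comparisons by edgeR, and none had an unadjusted p under 0.05 in any. At that level stood 7.39% of all genes for rotenone at 8 weeks, 12.8% at 3 weeks and 7.73% for the change with time. For age it was 12.8%, for time in controls 4.58% and for time with rotenone 32.5%. Called genes made up 0.0304% of all genes for rotenone at 8 weeks, 0% at 3 weeks and for the change with time, 1.98% for age, 0.122% for time in controls and 8.96% for time with rotenone. For age, esr1 averaged 10.4 ± 1.79 CPM at 36 months and 8.07 ± 2.27 CPM at 12 months (SD, n = 7 and 6), a log2 fold change of 0.36 ± 0.25 (SE, edgeR adjusted p = 0.62). Replicate 6 of the rotenone brains at 8 weeks had 19 reads of vtg2 and 20 of vtg5, the highest of the 24 brains for both, and the highest share of hepatocyte markers (0.429%, against at most 0.143% in the others). The liver of that fish had 0.783 CPM of vtg2 and 45.2 CPM of vtg5. The part of liver RNA in the brain values was not tested.

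In skin, vtg7 was the vitellogenin seen at the highest level per length in 20 of 24 libraries, with 0.234 to 1.78 CPM. vtg3 had 0.0685 to 1.11 CPM and esr1 0.142 to 2.00 CPM, while vtg5 had no read in 10 of 24 skins. The skin of replicate 1 of the 12-month controls at 3 weeks had 196 reads of vtg5 (6.94 CPM, against at most 1.06 CPM in the others). It also had the highest share of hepatocyte markers, 2.01%, against at most 0.281% in the other skins. The part of liver RNA in that value was not tested. Replicate 2 of the same group had the highest share of testis markers (0.159% of counts) and the highest vtg7 and esr1 of all skins, at 1.78 and 2.00 CPM.

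None of the 3 members tested in skin (vtg3, vtg7 and esr1) was called by edgeR. All genes called made up 5.29% for rotenone at 8 weeks, 0% at 3 weeks and for the change with time, 2.41% for age, 3.26% for time in controls and 13.4% for time with rotenone. With 8 weeks of rotenone vtg7 had 0.467, 0.884, 0.850, 0.958, 0.824 and 0.607 CPM, against 1.03, 1.12, 0.461 and 1.02 CPM in controls, and the groups overlapped. Its log2 fold change was -0.34 ± 0.37 (SE, edgeR adjusted p = 0.63), and those of esr1 and vtg3 were -0.02 ± 0.52 and 0.01 ± 0.51 (adjusted p = 0.99 for both). For age, vtg3 averaged 0.466 ± 0.305 CPM at 36 months and 0.267 ± 0.285 CPM at 12 months (SD, n = 7 and 6), a log2 fold change of 1.17 ± 0.45 (SE, edgeR adjusted p = 0.14), and esr1 had 0.57 ± 0.45 (adjusted p = 0.49). Without the skin with the highest testis markers both were called, vtg3 at 1.71 and esr1 at 1.41 (edgeR adjusted p = 0.040 and 0.042). The share of all genes called in that fit is not given, so these calls cannot be told from a change in the whole fit. At unadjusted p under 0.05 stood 1 of the 3 for age, where 21.2% of all genes did, 2 for time in controls, where 20.4% did, and none in the other 4 comparisons. In those 4, 22.7% of all genes did for rotenone at 8 weeks, 10.1% at 3 weeks, 10.6% for the change with time and 28.3% for time with rotenone.

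Whether the effect of 8 weeks of rotenone differed between tissues was tested across all 68 libraries. Tissues of the same fish entered this fit as separate libraries, without a term for the fish. Against brain, 2 of the 4 genes that passed the filter in both tissues had a lower effect in liver, where 3.91% of all genes did: vtg5 by -5.80 ± 1.27 (log2, SE, edgeR adjusted p = 0.0026) and vtg1 by -4.40 ± 0.89 (adjusted p = 0.00098). Against skin 1 of the 3 such genes was called, vtg7, by -4.42 ± 0.995 (edgeR adjusted p = 0.0032), where 3.66% of all genes were called lower. For esr1 the difference was -0.55 ± 0.66 against brain and -0.39 ± 0.72 against skin (adjusted p = 0.74 and 0.86). The calls of vtg5, vtg1 and vtg7 use the 3 control livers of 36 months, which had 894, 2062 and 8.65 CPM of vtg5. The differences between tissues were not refitted with a library left out.

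No correlation between tissues of a fish passed after adjustment, among members with a mean count of at least 10 in both tissues. In skin vtg5 reached that mean only through replicate 1 of the 12-month controls at 3 weeks, with 196 reads against at most 29 in the others. Its relation between liver and skin is therefore a description. Over 20 fish, r between liver and brain was 0.19 for vtg1 and -0.17 for esr1, and between liver and skin 0.18 for vtg5, -0.07 for vtg7 and -0.09 for esr1 (permutation tests, adjusted p between 0.55 and 0.77 over 18 relations). Spearman's rho was 0.22, -0.06, 0.49, -0.01 and -0.22 in the same order (permutation tests, adjusted p between 0.053 and 0.98). Without the 2 fish farthest from the median liver value, r was 0.36, 0.05, 0.13, -0.41 and -0.15.

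**Figure D5:**
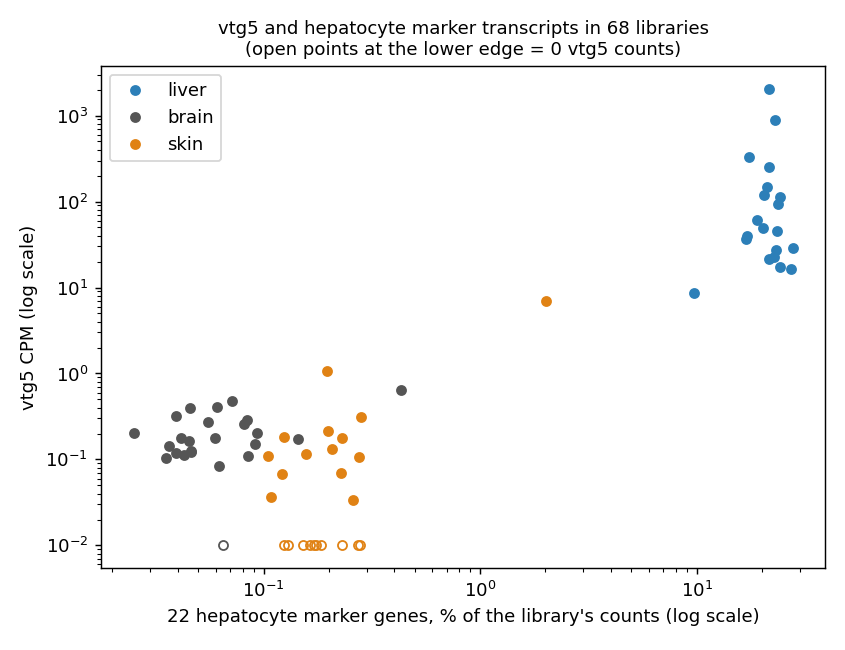
vtg5 (CPM, log scale) against the share of a library's counts taken by 22 hepatocyte marker genes (percent, log scale) in the 20 livers, 24 brains and 24 skins; open points at the lower edge have 0 vtg5 counts. Among livers vtg5 spans 8.65 to 2062 CPM, the skin and the brain with the most vtg5 (6.94 and 0.650 CPM) are those with the highest hepatocyte share of their tissue (2.01% and 0.429%).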

How the data were processed

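Per the labels' protocols, total RNA was isolated with QIAzol and libraries were made with a TruSeq RNA kit. CASAVA 1.8.2 is listed, per the submitters' processing notes; the sources used here do not name an aligner, counter, strand setting or genome build. The deposited table by the authors holds raw counts per gene, and beside them RPKM values, which served here only for levels per gene length. CPM divide a gene's count by the library's total.

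The 8 members and the gene lists were chosen with earlier results of these data known. Each tissue was fitted alone with its 6 groups (edgeR 4.0.16, R 4.3.3; TMM scaling, filterByExpr with a minimum count of 10 and total of 15, robust glmQLFit, two-sided quasi-likelihood F test, Benjamini-Hochberg over all genes, threshold 0.05), which left 20190 genes in liver. Tissues were compared in a fit of all 68 libraries (25628 genes), without a term for the fish. Standard errors are the log2 fold change divided by the root of F. Fits were tested on simulated data. For correlations, CPM were put on a log2 scale after a prior count of 2 was added. Alternatives were RLE scaling, no filter, DESeq2 1.42.0, only the groups compared, a block by replicate number, and leaving out libraries singly; library totals alone and leaving out libraries that stand apart were added after the data were seen. Named beside the members are, per list and liver comparison, up to 4 genes past the threshold by smallest p, the sex steroid receptors, and the 5 genes most like vtg5 and esr1. The 109 replicate pairs differed by a chi-square of at least 14.9 per gene.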

Additional observations from a re-analysis of the deposited data

Results flagged for a closer look

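In 6 of 35 sets of 4 to 6 replicates tested for a member, 1 library lay far from the rest of its group by Dixon's test on CPM. Under a normal spread the test picks out about 1 set in 20, a rate that need not hold for genes with few reads. A set was tested only if its highest count was at least 10, so a high library could bring in its own set. The 6 libraries are therefore descriptions, and their number cannot be set against that rate. In liver at 3 weeks of rotenone, replicate 2 had 29.9 CPM of esr1 (the others 2.95 to 5.30) and 2.07 CPM of vtg3 (the others 0 to 0.181), and replicate 3 had 2.37 CPM of vtg2 (the others 0.0913 to 0.301). In brain, replicate 6 of 8 weeks of rotenone had 0.618 CPM of vtg2 (the others 0 to 0.0852), and replicate 5 of 3 weeks had 0.370 CPM of vtg3 (the others 0.724 to 0.801). In skin, replicate 3 of the 36-month controls at 8 weeks had 0.461 CPM of vtg7 (the others 1.02 to 1.12).

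The effect of 8 weeks of rotenone differed between tissues by a test of the difference itself for 2 of the 4 genes that passed the filter on low counts in liver and brain, by -4.40 for vtg1 and -5.80 for vtg5 (log2). Between liver and skin it did for vtg7, by -4.42 (log2). Tissues of the same fish were treated as separate libraries here, and the test was not refitted with a library left out.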

How the results depend on the processing

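For rotenone at 8 weeks in liver, 5 members were called in the fit as described, 0 with the replicate number as a block and 2 with the 2 groups alone. The sample titles give replicate numbers without naming a pairing of fish. Over 3 pairs the same-numbered livers' deviations correlated between -0.26 and 0.05, and none best with its own number. So few pairs cannot show whether livers of the same number share a condition. With the block vtg5 had -5.04 (edgeR adjusted p = 0.15). Leaving out the libraries that stand apart gave 1 member called for the change of the rotenone difference with time, 5 for age, 5 for time in controls and 5 for time with rotenone. Of all genes, 0.347%, 1.58%, 11.8% and 13.2% were then called. DESeq2 gave 3, 5, 1 and 2 members, and the groups alone gave 4 for time with rotenone. For the other fits of this section the shares of all genes are not given. Their counts cannot tell a change in the members from a change in the whole fit. Leave-one-out counts ranged over 0 to 1, 0 to 5, 0 to 5 and 0 to 1 in these 4, and in skin over 0 to 2 for age and 0 to 1 for time in controls. Otherwise the counts stayed within 1.5 times the value reported.

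Directions turned, with no value past the threshold, when single libraries were left out: in liver vtg3 (-1.39 to 2.60), vtg5 (-0.60 to 1.24) and esr1 (-0.21 to 1.47) at 3 weeks of rotenone, esr1 for age (-0.30 to 0.74) and for time with rotenone (-1.51 to 0.21); in brain vtg1 (-0.22 to 0.083) and esr1 (-0.052 to 0.27) at 8 weeks of rotenone; in skin vtg3 (-0.20 to 0.27) and esr1 (-0.18 to 0.19) at 8 weeks and vtg7 for age (-0.41 to 0.028). With the replicate block vtg3 in skin at 8 weeks was -0.016. Library totals alone turned esr1 between liver and brain (-0.77) and vtg3 between liver and skin (-0.95). Without the 2 farthest fish r turned for esr1 between liver and brain (0.053) and for esr1 with vtg2 in liver (0.028). The causes were not tested. With 2 or 3 control livers a group, 1 fish can set a mean, and members with a few reads per library carry counting error that hides moderate changes.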
